A study of Mus musculus with 768 samples.

Results

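The genes described here are imprinted genes known for control of growth, chosen by name: Igf2, H19, Dlk1, Meg3, Peg3, Plagl1, Grb10, Mest and Ndn. Of these 9 genes, 7 were matched to rows among the 25700 genes of the count table, and H19 and Meg3 were not analysed here. They were followed in single Schwann cells from the sciatic nerve of mice at postnatal day 5, handled with the Smart-Seq2 protocol, which reads fragments along whole transcripts and carries no molecular identifiers. All animals were P0Cre-/+: ReYFP Tg/+: βAct-DsRed Tg/+ on a C57bl/6J background, a line in which the P0Cre transgene switches on eYFP in the Schwann cell lineage, and eYFP-positive cells were sorted one per well into 2 plates of 384 wells. Each plate held cells pooled from 1 male and 1 female mouse (1:1), with different animals for each plate. A plate is thus 1 replicate of pooled mice, and there was no treatment.

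In an imprinted gene, DNA methylation laid down in the egg or sperm marks the parental copies differently, and the copy from one parent stays largely silent. Many genes of this kind act on fetal and early postnatal growth. As a broad pattern, genes expressed from the father's copy (Igf2, Dlk1, Peg3, Plagl1, Mest, Ndn) include promoters of growth, while Grb10, expressed from the mother's copy in most tissues and from the father's copy in neurons, restrains it. In peripheral nerve at this age, immature Schwann cells leave the cell cycle, sort axons and begin to myelinate. The counts are per gene, so the parental origin of the reads could not be read.

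Of 768 wells, 655 were retained (325 in plate 1 and 330 in plate 2), each with at least 1500 detected genes. Cells were placed in 4 states by a rule that uses none of the imprinted genes. A cell was cycling with at least 5 reads in at least 3 of Mki67, Top2a, Cdk1, Birc5, Ccnb1, Ccna2, Aurkb, Ube2c, Tpx2 and Cenpf. Otherwise it was immature when Ncmap, a protein of the non-compact myelin membrane, was under 10 CPM (reads of a gene scaled to the total of the library), intermediate when Ncmap reached that limit but Pmp22, a protein of compact myelin, was under 30000 CPM, and myelinating beyond both limits. Plates 1 and 2 held 32 and 25 cycling, 106 and 122 immature, 79 and 70 intermediate, and 108 and 113 myelinating cells. Median depth was highest in myelinating cells (819462 and 719230 reads per well) and lowest in immature cells (476354 and 418999), so shares of wells are also given at an equal depth of 100000 reads. At least 3 of 7 Schwann cell markers were met by 651 of 655 wells. No well met the list of fibroblast-like, endothelial, pericyte, immune, skeletal muscle or adipocyte markers, 1 met the neuron list, and 50 met the perineurial list, of which 23 were intermediate and 19 myelinating. Of the perineurial genes, Lypd2 was at 0 and Moxd1 at no more than 0.0102 CPM in every sum, Itga6 made up most of the list's reads, and Cldn1 was highest in intermediate cells (40.3 and 46.3 CPM).

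The 7 genes lie on GRCm38 as annotated by GENCODE vM21, and all are protein-coding. Igf2 (ENSMUSG00000048583) spans chr7:142650766-142666816, Peg3 (ENSMUSG00000002265) spans chr7:6703892-6730431 and Ndn (ENSMUSG00000033585) spans chr7:62346569-62350262. Grb10 (ENSMUSG00000020176) spans chr11:11930508-12038683, Mest (ENSMUSG00000051855) spans chr6:30723547-30748465, Plagl1 (ENSMUSG00000019817) spans chr10:13060504-13131694 and Dlk1 (ENSMUSG00000040856) spans chr12:109452823-109463336. The strand setting of the counting is not given in the sources used here. Ndn lies inside the span of the non-coding gene Gm32061 of the opposite strand, which has no row in the count table. Whether exons of the 2 genes overlap, and so whether they could share reads, was not tested.

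The RefSeq promoter windows (250 bases before to 50 after an annotated start, GRCm38.p6) of Grb10, the member that differed between states, and of Ndn, the member detected in most wells, show 2 kinds of sequence at imprinted genes. GC boxes (GGGCGG on either strand, overlapping matches joined) are in capitals.
Grb10, chr11:12037371-12037670, minus strand: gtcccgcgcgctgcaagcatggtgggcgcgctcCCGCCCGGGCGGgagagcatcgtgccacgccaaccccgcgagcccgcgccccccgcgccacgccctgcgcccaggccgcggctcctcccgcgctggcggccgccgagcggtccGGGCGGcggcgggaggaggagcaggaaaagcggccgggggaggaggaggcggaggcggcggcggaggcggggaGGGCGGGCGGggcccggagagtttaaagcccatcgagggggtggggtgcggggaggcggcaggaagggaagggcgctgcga
Ndn, chr7:62348027-62348326, plus strand: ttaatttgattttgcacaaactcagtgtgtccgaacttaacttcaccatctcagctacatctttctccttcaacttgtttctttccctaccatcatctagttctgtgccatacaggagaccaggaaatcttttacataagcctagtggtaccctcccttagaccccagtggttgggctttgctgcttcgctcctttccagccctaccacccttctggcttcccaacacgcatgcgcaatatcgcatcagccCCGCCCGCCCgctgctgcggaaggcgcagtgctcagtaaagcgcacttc
The Grb10 window is 80% GC with 45 CpG dinucleotides and 5 GC box matches, and 1.93% of 32851 mouse windows of this length hold as many CpG. The Ndn window is 51% GC with 11 CpG, a number that 41.4% of windows reach, and has 2 GC box matches at its end near the start. At least 1 GC box is found in 35.7% of all windows. Grb10 has a second window in the table, at chr11:12027922-12028221, with 9 CpG and no GC box, and reads summed per gene do not tell which start was used.

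Over all retained wells together, Ndn was the most abundant of the 7 per length of transcript, at 58.5 RPKM (CPM divided by exon length in kilobases). Grb10 followed at 5.55 RPKM, Mest at 5.01 RPKM and Peg3 at 2.53 RPKM. Plagl1 stood at 0.324 RPKM, Igf2 at 0.162 RPKM and Dlk1 at 0.0134 RPKM. Grb10 and Mest changed places between states, with mean levels of 9.83 ± 0.185 against 5.42 ± 0.180 RPKM in immature cells and 3.71 ± 0.439 against 13.04 ± 5.70 RPKM in intermediate cells (SD, n = 2 plates). Peg3 stood above Mest in cycling cells (7.47 against 1.60 RPKM) and in myelinating cells (2.06 against 1.45 RPKM), and Igf2 above Plagl1 in cycling cells (1.02 against 0.830 RPKM), so the pooled order did not hold in every state. At least 1 read was found in 58.5% of wells for Ndn, 38.3% for Grb10, 20.9% for Peg3, 19.7% for Mest, 3.97% for Plagl1, 1.07% for Igf2 and 0.763% for Dlk1. The median number of the 7 genes with reads in a cell was 2 in cycling cells of both plates, 1 and 2 in immature cells of plates 1 and 2, and 1 in intermediate and myelinating cells of both.

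**Figure D1:**
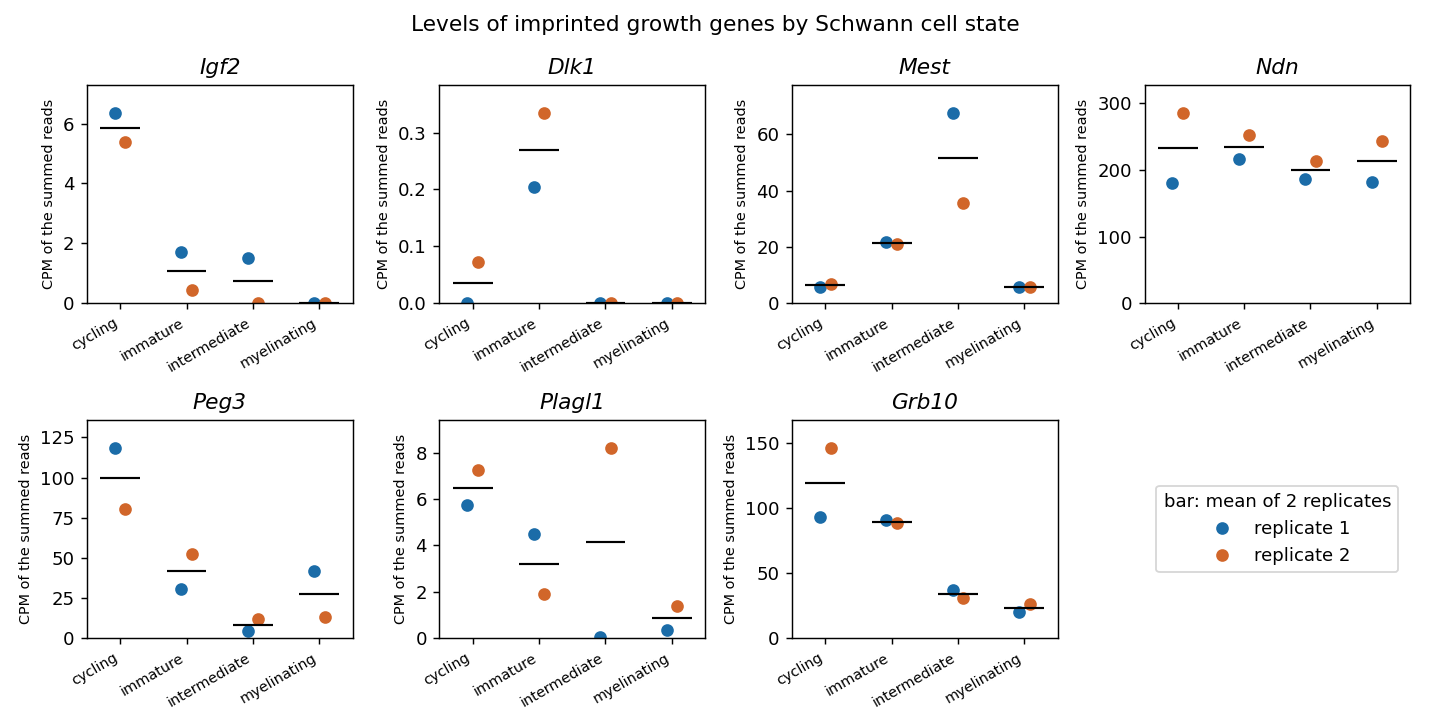
Level of each gene as CPM of the reads summed per plate and state (linear axes from 0, each gene on its own scale), with 1 point per plate and a bar at the mean of the 2 plates. Grb10 lies at 88.1 to 146 CPM in cycling and immature cells and at 20.1 to 36.6 CPM in intermediate and myelinating cells, while Ndn lies between 181 and 285 CPM in all 4 states.

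Differences between states were tested on reads summed per plate and state, 8 sums in all, with edgeR's quasi-likelihood test and adjustment over all 13892 genes tested. All 7 members passed the filter on low counts. From immature to myelinating cells 1 of the 7 members passed an adjusted p of 0.05, Grb10, which was lower. This compares with 5.1% of all genes called in either direction, 2.59% higher and 2.51% lower. None of the 7 passed in the other comparisons. The shares of all genes called were 2.48% for cycling against immature cells (1.23% higher and 1.25% lower), 1.97% for intermediate against immature cells (0.972% higher and 1% lower) and 0.777% for myelinating against intermediate cells (0.353% higher and 0.425% lower). These were 345, 274 and 108 genes with edgeR, while 2137, 1519 and 1301 genes had an unadjusted p under 0.05 and DESeq2 called 1338, 931 and 647. DESeq2 called none of the members in the first of these, 2 in the second (Grb10 and Peg3) and 1 in the third (Mest). At an unadjusted p under 0.05, edgeR had Mest in the first, Peg3, Grb10 and Mest in the second, and Igf2, Peg3 and Mest in the third.

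Grb10 encodes an adaptor protein that binds the activated insulin and IGF1 receptors and dampens their signal. Cycling cells of plates 1 and 2 held 92.7 and 146 CPM, and immature cells 90.5 and 88.1 CPM. Intermediate cells held 36.6 and 30.9 CPM, and myelinating cells 20.1 and 25.9 CPM. The cycling and immature sums were thus all above the intermediate sums, which were all above the myelinating sums. In myelinating cells Grb10 fell by 1.58 on the log2 scale relative to immature cells (SE 0.346, edgeR adjusted p = 0.0328), in both plates. Intermediate cells differed from immature cells by -1.26 (SE 0.343, edgeR adjusted p = 0.137, DESeq2 adjusted p = 0.0216). Myelinating and intermediate cells differed by -0.31 (SE 0.338, edgeR adjusted p = 0.914), and cycling and immature cells by 0.53 (SE 0.339, edgeR adjusted p = 0.491).

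The Grb10 difference lay both in the share of cells with reads and in the level of those cells. At equal depth, reads were found in 35.6% and 42.7% of immature cells and in 20.8% and 22.1% of myelinating cells of plates 1 and 2. At full depth the shares were 40.6% and 49.2% of immature cells (95% Clopper-Pearson intervals 31.1 to 50.5% and 40.0 to 58.4%) against 28.7% and 28.3% of myelinating cells (20.4 to 38.2% and 20.2 to 37.6%). Among cells with reads at equal depth, the median was 205 and 135 CPM in immature cells and 85 and 110 CPM in myelinating cells. Intervals cover counting error only.

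The perineurial list as a whole had summed levels of 516 and 588 CPM in the immature sums and 552 and 480 CPM in the myelinating sums, ranges that overlap. Most of this was Itga6, at 413 and 502 CPM in immature and 480 and 424 CPM in myelinating sums. By wells, 5 immature and 19 myelinating cells had at least 5 reads of 3 genes of the list. Whether this bears on the Grb10 difference was not tested. Without the wells with at least 5 reads of 2 genes of any list of other cell types, which removed 320 of 655 wells, the Grb10 difference was -1.92 (SE 0.519) with an edgeR adjusted p of 0.154. Leaving the perineurial list out of that step gave -1.50 and an edgeR adjusted p of 0.0383.

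**Figure D2:**
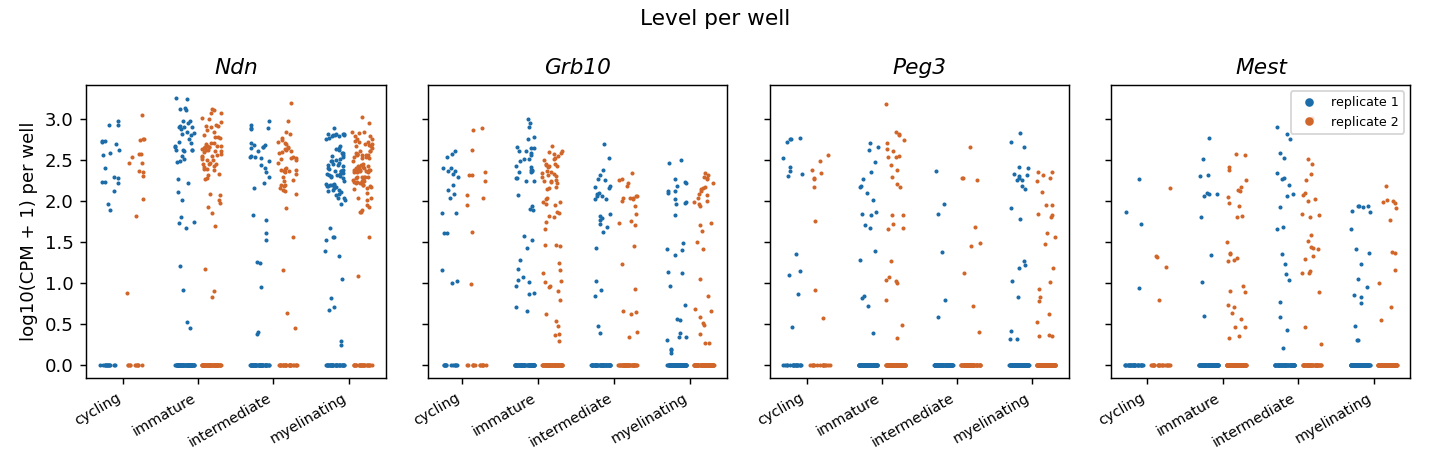
Level per well as log10(CPM + 1) for the 4 most detected genes, with 1 point per retained cell, points at 0 for cells with no read, and plates side by side within each state. Grb10 points of myelinating cells lie lower and are fewer than those of immature cells, and most Ndn points of positive myelinating cells lie between 2 and 3 on this scale.

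Ndn encodes necdin, a protein of the MAGE family known for holding back the cell cycle in neurons and other cells. Its levels in plates 1 and 2 were 181 and 285 CPM in cycling cells, 216 and 253 CPM in immature cells, 187 and 213 CPM in intermediate cells, and 182 and 244 CPM in myelinating cells. The means of the states ranged from 199.8 to 234 CPM, and the ranges of the states overlapped, except that both immature sums lay just above both intermediate sums. The 4 fitted log2 differences between states ranged from -0.09 (intermediate minus immature) to 0.34 (myelinating minus intermediate), with SE of about 0.260 and edgeR adjusted p from 0.780 to 0.987. The direction from immature to myelinating cells depended on the scaling, with a fitted value of 0.24 and a value of -0.14 from the CPM means. For cycling against immature cells the fitted value was 0.10 and that from the CPM means -0.01. TMM scaling lowered the effective size of the myelinating libraries, a shift of -0.38 (log2) against immature ones, and the median over all genes was -0.04 with TMM and -0.42 without.

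The cells behind the similar Ndn levels were not spread alike. At equal depth, Ndn reads were found in 39.6% and 52.1% of immature cells and 38.9% and 63.8% of intermediate cells of plates 1 and 2. In myelinating cells they were found in 68.9% and 77.0%. Among cells with reads at the same equal depth, the median level was 545 and 390 CPM in immature cells, 340 and 275 CPM in intermediate cells and 200 and 260 CPM in myelinating cells. Cycling cells had shares of 58.1% and 62.5% and medians of 290 and 350 CPM. From immature to myelinating cells the share was thus higher and the median of positive cells lower in both plates, while from immature to intermediate cells of plate 1 the share was about the same. These shares and medians are a description, with no test over the 2 plates.

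**Figure D3:**
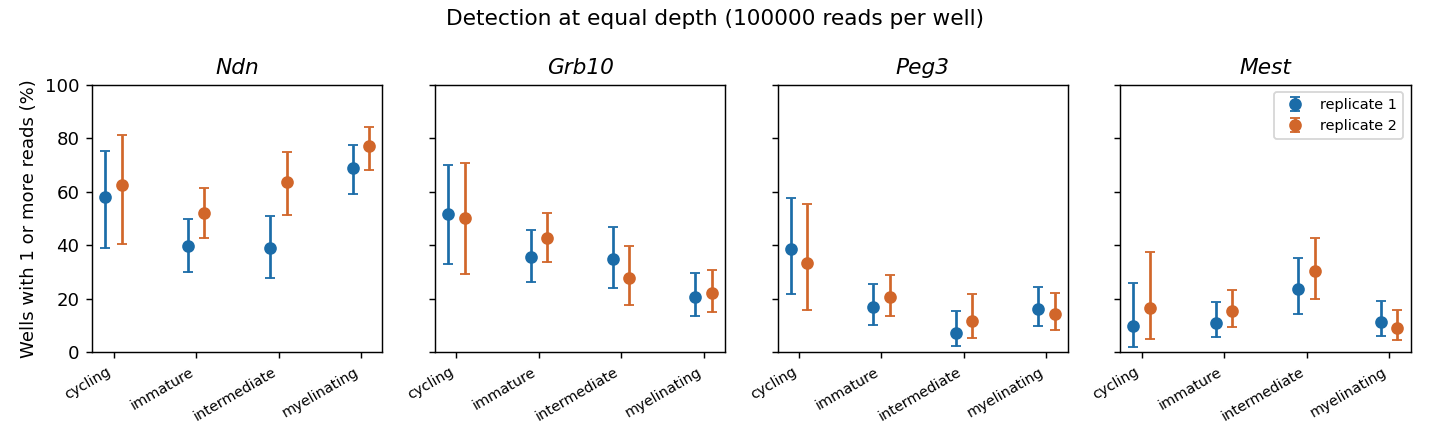
Share of wells with at least 1 read (%) after thinning each cell to 100000 reads, by state and plate, with 95% Clopper-Pearson intervals as bars. Ndn is found in 68.9% and 77.0% of myelinating cells against 39.6% and 52.1% of immature cells, whereas Grb10 is found in fewer myelinating than immature cells.

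Peg3 and Plagl1 encode zinc finger proteins. Peg3 is known for roles in fetal growth and maternal behaviour, and Plagl1 (Zac1) is a transcription factor that can arrest the cell cycle and regulates other imprinted genes. Peg3 stood at 118 and 80.6 CPM in cycling cells, 30.9 and 52.4 CPM in immature cells, 4.69 and 11.9 CPM in intermediate cells, and 41.9 and 12.9 CPM in myelinating cells of plates 1 and 2. The cycling sums lay above and the intermediate sums below those of the other states, although the myelinating sum of plate 2 was close to the intermediate one. The plates went opposite ways from immature to myelinating cells (log2 ratios of 0.43 and -1.98, fitted -0.22, SE 0.640, edgeR adjusted p = 0.947). Intermediate minus immature cells gave -2.20 (SE 0.670, edgeR adjusted p = 0.198, DESeq2 adjusted p = 0.0176), and myelinating minus intermediate cells gave 1.98 (SE 0.665, edgeR adjusted p = 0.350). Cycling minus immature cells gave 1.36 (SE 0.652, edgeR adjusted p = 0.363). At equal depth Peg3 was found in 38.7% and 33.3% of cycling cells and in 6.94% and 11.6% of intermediate cells, with immature and myelinating cells between 14.2% and 20.5%.

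Plagl1 was rare, with 1070 reads in 26 of 655 wells, and 256 of them (23.9%) came from 1 intermediate cell of plate 2. Its sums ranged from 0.0640 CPM in intermediate cells of plate 1 to 8.19 CPM in intermediate cells of plate 2, so the plates of that state spanned all the other sums. Cycling cells held 5.73 and 7.25 CPM. No difference between states passed (edgeR adjusted p from 0.839 to 0.9997).

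Mest encodes a protein of the alpha/beta-hydrolase fold and is widely expressed in embryonic mesoderm. Its levels in plates 1 and 2 were 5.88 and 6.75 CPM in cycling cells, 21.9 and 20.9 CPM in immature cells, 67.3 and 35.6 CPM in intermediate cells, and 5.63 and 5.81 CPM in myelinating cells. Intermediate cells were highest in both plates, followed by immature cells, and the cycling and myelinating sums were close to each other. Myelinating minus intermediate cells gave -2.93 (SE 0.612, edgeR adjusted p = 0.0894), past the threshold with DESeq2 (adjusted p = 7.77e-05). Intermediate minus immature cells gave 1.41 (SE 0.580, edgeR adjusted p = 0.417, and 0.55 with the Ncmap limit at 50 CPM, which moved 5 wells), myelinating minus immature cells -1.52 (SE 0.582, edgeR adjusted p = 0.234) and cycling minus immature cells -1.65 (SE 0.588, edgeR adjusted p = 0.219). At equal depth Mest was found in 23.6% and 30.4% of intermediate cells and in 11.3% and 8.85% of myelinating cells. A single intermediate cell of plate 1 gave 967 of the 8340 Mest reads (11.6%).

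The end of Mest overlaps the end of Copg2, a gene for a coat protein of transport vesicles, on the opposite strand from position 30747554 on. Of the 129 wells with Mest reads, 93 also held Copg2 reads, and 7650 of the 8340 Mest reads lay in wells with Copg2 reads. Mest reads outnumbered Copg2 reads in 102 of the 129 wells, while 49 wells held Copg2 reads and no Mest read. In wells without Copg2 reads, Mest stood at 3.90 and 2.91 CPM in immature cells and 3.04 and 7.35 CPM in intermediate cells of plates 1 and 2. Cycling cells there held 0 and 2.88 CPM, and myelinating cells 0.0280 and 0.522 CPM. Among these wells, intermediate cells were thus highest in plate 2 only. A Mest read in the overlap may also have been counted for Copg2. Choosing wells without Copg2 reads can therefore itself remove wells rich in Mest, so these values do not decide which state was highest. How many reads were counted for both genes was not tested.

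**Figure D4:**
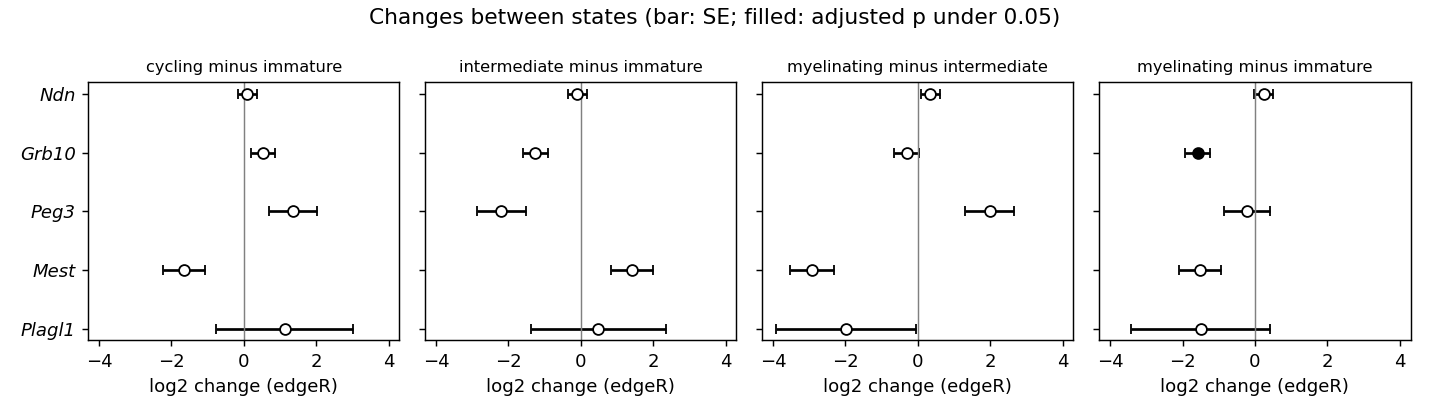
Log2 change between states for 5 genes, fitted by edgeR on 8 sums, with SE as bars and a filled point where the adjusted p is under 0.05. Grb10 in myelinating minus immature cells is the only filled point, and the Mest and Peg3 values of myelinating minus intermediate cells lie on opposite sides of 0 with open points.

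Igf2 encodes the growth factor IGF-II, which signals through the IGF1 and insulin receptors, and Dlk1 encodes a transmembrane protein related to Notch ligands that can be shed. Both were at the edge of detection. Igf2 had 391 reads in 7 of 655 wells. In plates 1 and 2, 126 and 75 reads came from 2 and 2 cycling cells (6.34 and 5.39 CPM), and 93 and 26 reads from 1 and 1 immature cells (1.72 and 0.434 CPM). A further 71 reads came from 1 intermediate cell of plate 1, and intermediate cells of plate 2 held 0. No read was found in 108 and 113 myelinating cells, which allows a share of wells with reads of up to 2.78% and 2.66% by a limit of 3 wells of the total (upper Clopper-Pearson bounds of 3.36% and 3.21%), above the shares of 0.943% and 0.820% in immature cells. Every Igf2 read was also counted for Gm49394, a protein-coding gene of the same strand that overlaps it and has identical reads in all 768 wells, so the 2 rows cannot be told apart.

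These reads come from too few wells for a fold between states. The fitted differences of myelinating from immature and from intermediate cells did not pass (edgeR adjusted p = 0.241 and 0.470), and DESeq2 gave an adjusted p of 0.0332 for the first. Dlk1 had 32 reads in 5 wells, of which 31 came from 4 immature cells and 1 from a cycling cell, with none in intermediate or myelinating cells. The intermediate and myelinating differences from immature cells did not pass (edgeR adjusted p = 0.603 and 0.426). Of the 7 Igf2 wells, 3 held at least 5 reads of 2 perineurial genes, among them the single intermediate well, and these wells held 250 of the 391 reads. Of the 5 Dlk1 wells, 4 did, with 21 of the 32 reads, against 320 of all 655 wells with 2 genes of some other list. None held 2 genes of a list other than the perineurial one or 3 perineurial genes, and all had at least 3 of the 7 Schwann cell markers. A single well held reads of both.

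Of 24 genes of the IGF axis (ligand, receptors, binding proteins, receptor substrates and downstream kinase and FOXO genes), 19 were tested. From immature to myelinating cells 1 rose and 1 fell, 10.5% of those tested against 5.1% of all genes. The median log2 change of the list was -0.43 against -0.04 for all genes. None passed in the other 3 comparisons. Grb14, a relative of Grb10 that also inhibits the insulin receptor, stood at 92.9 and 50.1 CPM in immature and 153 and 162 CPM in myelinating cells of plates 1 and 2. It rose by 1.53 (log2, SE 0.340, edgeR adjusted p = 0.0351), where Grb10 fell. Igfbp7, a secreted protein that binds IGFs weakly, stood at 39.7 and 48.1 CPM in immature and 0.995 and 0.206 CPM in myelinating cells, a change of -5.79 (log2, SE 1.11, edgeR adjusted p = 0.0178). Without wells with markers of other cell types, Grb14 gave 1.71 with an adjusted p of 0.0813, and its value lay between 1.31 and 1.71 over all alternatives that kept both plates.

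Of 54 other imprinted genes listed, 47 were in the table and 33 were tested. In cycling against immature cells 0 rose and 1 fell, in intermediate against immature cells none passed, in myelinating against intermediate cells 1 rose and 1 fell, and in myelinating against immature cells 0 rose and 2 fell. In that order, the share called was 3.03%, 0%, 6.06% and 6.06% of the 33 genes, against 2.48%, 1.97%, 0.777% and 5.1% of all genes. The median log2 changes of the list were -0.64, -0.21, 0.01 and -0.17, against -0.13, -0.03, 0.00310 and -0.04 for all genes. Cdkn1c, an inhibitor of cyclin-dependent kinases that restrains growth, made up 3 of these calls. It stood at 251 and 208 CPM in cycling cells, 1908 and 861 CPM in immature cells, 3078 and 2005 CPM in intermediate cells, and 91.2 and 49.2 CPM in myelinating cells of plates 1 and 2. Intermediate cells were highest in both plates, as for Mest over all retained wells. Cdkn1c fell by 4.94 from intermediate to myelinating cells (log2, SE 0.470, edgeR adjusted p = 0.00206), and differed by -3.92 between myelinating and immature cells (SE 0.447, edgeR adjusted p = 0.00120) and by -2.49 between cycling and immature cells (SE 0.421, edgeR adjusted p = 0.0202).

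Nnat, which encodes neuronatin, a small membrane protein, stood at 27.2 and 22.7 CPM in immature cells and at 0.447 and 1.21 CPM in myelinating cells (log2 change -4.52, SE 0.897, edgeR adjusted p = 0.0209). Sgce, which encodes epsilon-sarcoglycan, a membrane protein of the dystrophin complex, stood at 58.1 and 49.0 CPM in intermediate and 143 and 160 CPM in myelinating cells. It rose by 1.75 (log2, SE 0.312, edgeR adjusted p = 0.0470), and with the plate as a replicate block the adjusted p was 0.0714. Sgce passed in 8 of 14 alternatives and fell to 1.10 with a Pmp22 limit of 40000 CPM (adjusted p = 0.294). Leaving out wells with markers of other cell types removed 320 of 655 wells, of which 315 held at least 2 perineurial genes. Most reads of the perineurial list were of Itga6, and 651 of all 655 wells met the Schwann cell list. Whether the wells left out held other cell types was not tested. Nnat then gave -6.07 (edgeR adjusted p = 0.120) and Sgce 1.75 (0.308). Cdkn1c then gave -2.97 (0.0906) in cycling minus immature and -4.55 (0.0545) in myelinating minus intermediate cells. With 2 cycling genes sufficing, Cdkn1c gave -1.34 in cycling minus immature cells (adjusted p = 0.324).

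Genes with the most similar levels over the 8 sums (Pearson's r of log2(CPM + 1), among 6305 genes with a mean of at least 20 CPM) were named for the 4 most detected members. They were Cebpz (0.993), Alcam (0.992) and Mpg (0.989) for Grb10, and Far2 (0.979), Prkcq (0.977) and Fam92a (0.961) for Peg3. For Mest they were Rps3 (0.970), Sf3b2 (0.957) and Atox1 (0.942), and for Ndn they were Slc25a12 (0.980), Sec62 (0.968) and Copa (0.940). Over 0.9 stood 315 genes for Grb10, 26 for Peg3, 26 for Mest and 4 for Ndn. The 8 points share plates and library depth, and the values are a description.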

How the data were processed

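The authors deposited raw read counts per gene and well for single Schwann cells of 2 plates (226050990 and 203322077 reads in all). Per the submitters' processing notes, reads were handled with bcl2fastq, STAR 2.6.1c and featureCounts on GRCm38.p5, while the study's methods name a human build, so the build rests on the notes. Of 25700 gene identifiers, 25664 matched GENCODE vM21. The rest held 0.0821% of reads.

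Wells with at least 1500 detected genes outside the 8 plate corners were kept. No doublet caller was run. One Schwann cell marker is not reported here and was left out of its list after the data were seen. Reads were summed per plate and state and tested with edgeR 4.0.16 (quasi-likelihood, TMM, filterByExpr, all 8 sums in 1 fit, R 4.3.3), with Benjamini-Hochberg adjustment at 0.05, two-sided. The genes of the state rule stayed in library sizes and out of the tests. With 2 plates and no plate term in the fit, p-values rest on the spread between the 2 sums of each state. It was pooled over the 4 states and drawn toward the trend over the genes tested. That spread mixes differences between pools of animals with the sampling of cells, and the design cannot separate them. The script was tested on simulated data with less spread between sums than these data. That test does not give the share of missed or false calls here. Alternatives were DESeq2 1.42.0, RLE scaling, no filter, a replicate block, other limits and left-out wells. Leaving the perineurial list out of the marker step, and detection at equal depth, were added after the data were seen.

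The states of a plate come from the same pooled animals, which pairs the sums. Deviations of plates correlated at r of -0.00951 to 0.122 over the 6 pairs of states (1990 genes). Members, lists and states were chosen with earlier results of these data known. All members are named, and from the lists every gene that passed and reached 20 CPM in a state's mean. Shared reads of overlapping genes and the lack of molecular identifiers limit precision beyond counting error.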

Additional observations from a re-analysis of the deposited data

Results flagged for a closer look

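In the 105 wells outside the corners that had fewer than 1500 detected genes and took no part in the comparisons (7279040 reads in all), reads of 3 of the 7 genes lay above the limit that a count of 0 allows, 0.412 CPM. Ndn stood at 89.2 CPM, with 649 reads in 13 wells, against 216 CPM in the retained wells. Peg3 stood at 1.37 CPM, with 10 reads in 4 wells, against 33.8 CPM. Grb10 stood at 0.55 CPM, with 4 reads in 4 wells, against 50.4 CPM.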

How the results depend on the processing

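The Grb10 difference between myelinating and immature cells kept its direction in all 15 alternatives and passed in 14 (edgeR or DESeq2 adjusted p from 0.00110 to 0.154). The one loss was without wells with markers of other cell types, nearly all of which held genes of the perineurial list. Numbers of genes called moved by over 1.5 times with DESeq2 (1338, 931, 647 and 1516 genes for cycling minus immature, intermediate minus immature, myelinating minus intermediate and myelinating minus immature cells, against 345, 274, 108 and 709), with no low-count filter (856, 696, 442 and 1204) and without wells with other cell types' markers (106, 68, 27 and 238, with fewer cells). Thinned cells gave 470 for intermediate minus immature and 213 for myelinating minus intermediate cells, and cycling cells set from 2 genes gave 171 for cycling minus immature cells. Members called were 2 with DESeq2 and 1 with no filter for intermediate minus immature cells. For myelinating minus intermediate cells they were 1 with DESeq2, 2 with no filter, 1 with thinned cells and 1 with a Pmp22 limit of 20000 CPM. For myelinating minus immature cells they were 2 with DESeq2 and 0 without the marker wells.

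Directions turned for values that did not pass. In cycling minus immature cells, without the marker wells Igf2 gave -0.076, Grb10 -0.12 and Ndn -0.45, thinned cells gave -0.010 for Ndn, and leaving out the well with most reads gave -0.33 for Plagl1 and -0.059 for Ndn. In intermediate minus immature cells, Igf2 gave 8.29 with a minimum of 2500 genes, 1.24 with thinned cells, 0.15 with the Pmp22 limit at 20000 CPM and 1.87 with cycling cells set from 2 genes. All Igf2 values here rest on 7 wells with reads, with 1 intermediate cell among them, too few for a fold. In the same comparison Plagl1 gave -0.0014 with 2500 genes, -0.64 with thinned cells, -0.44 without the marker wells and -0.26 without its top wells. Without the marker wells Ndn gave 0.25 there and -0.18 in myelinating minus intermediate cells. Mest in cycling minus immature cells kept its direction, with values from -3.14 to -0.73.

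With the plate as a replicate block, Plagl1 gave -0.64 for intermediate minus immature cells in place of 0.49, and Sgce lost its call (adjusted p = 0.0714), as it did with 2500 genes (0.0648), without columns 8 and 16 (0.0546) and with Pmp22 limits of 20000 CPM (0.0596) and 40000 CPM (0.294). The block changed no other call among the members and named genes. Leaving out 1 plate gives a ratio within the other with no test. Shares of wells with 5 or more reads at full depth were 16.8% for Peg3, 2.44% for Plagl1, 30.4% for Grb10 and 15.1% for Mest. In thinned cells, shares with 1 or more reads were 16.9% for Peg3, 32.4% for Grb10 and 15.2% for Mest. Over all alternatives that kept both plates, 435 of the values kept their direction and side of the threshold, 17 turned, 9 gained a call and 12 lost one. The causes were not tested, and settings that left wells out also lowered the number of cells.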
